A study of Mus musculus with 6 samples.

Results

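The 10 genes described here encode adhesion, junction and splicing proteins of epithelia that are known as targets of repression by ZEB1. They are Cdh1, Jup, Ocln, Tjp1, F11r, Cldn1, Crb3, Epcam, St14 and Esrp1, and they were taken by symbol from a deposited RNA-seq table of 48709 genes, in which all 10 had a row. The RNA came from peritoneal macrophages of C57BL/6 mice that were 6 to 8 weeks old, sorted as F4/80+ CD11b+ cells. The mice were either wild-type or Zeb1 (+/-) heterozygous, neither group was treated, and each genotype had 3 libraries of 2 pooled mice. The labels name no promoter or Cre that would limit the altered allele to macrophages, and how it was made was not given in the sources used here. Of the 10 genes, 5 had enough counts to be tested, 4 held stray counts and 1 (Esrp1) had none.

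ZEB1 is a DNA-binding repressor that recognises E-boxes through its zinc fingers and recruits corepressors such as CtBP. In epithelia it is best known for silencing E-cadherin and, with it, tight junction, polarity and splicing genes during epithelial-mesenchymal transition. Macrophages are not epithelial, but cells of this lineage can express single junction proteins, and E-cadherin is known from macrophages stimulated with interleukin-4.

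Total counts ran from 17859872 to 42165006 per library. Zeb1 itself lay between 5.44 and 7.56 CPM (count scaled to the TMM-corrected library size) in wild-type and between 3.45 and 3.85 CPM in Zeb1 (+/-), a log2 fold change of −0.89 ± 0.16 (SE) with an edgeR quasi-likelihood adjusted p of 0.0522. All log2 fold changes given here are those of Zeb1 (+/-) relative to wild-type. The macrophage markers were all present, with Adgre1, which encodes F4/80, at means of 2186 and 2618 CPM in wild-type and Zeb1 (+/-) and Itgam, which encodes CD11b, at 4848 and 5061 CPM. Small structural RNAs, scaled to total counts without the TMM correction, stood low in wild-type replicate 1 (4.14 CPM) and wild-type replicate 2 (8.69 CPM). They lay between 42.2 and 45.5 CPM in the other 4 libraries. The 12 markers fixed for epithelium summed to between 1.77 and 2.82 CPM in wild-type and between 1.31 and 2.31 CPM in Zeb1 (+/-), and 7 of them, among them Krt5 and Cdx2, had no count in any library. The 11 mesothelial markers summed to 5.47 to 9.48 CPM and 7.18 to 10.4 CPM. Most of that was keratin 7 (Krt7, 7.21 and 7.87 CPM), while the defining genes Msln, Upk3b and Wt1 had 5, 9 and 1 counts over all 6 libraries together.

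The serine protease gene St14 and the tight junction gene Ocln were higher, and the plakoglobin gene Jup lower, in all 3 Zeb1 (+/-) libraries than in any wild-type library. None of the 10 passed the threshold of 0.05 after Benjamini-Hochberg adjustment in edgeR, where 0.587% of 12940 tested genes did (0.155% higher, 0.433% lower). At an unadjusted p under 0.05 stood 3 of the 5 tested members, 2 higher and 1 lower, against 14.6% of all tested genes (6.3% higher, 8.26% lower). Groups that did not overlap were found in the same 3, against 19.9% of all tested genes (9.6% with Zeb1 (+/-) above, 10.3% below). The Wald test of DESeq2 called 2 of the 10, St14 higher (adjusted p = 0.00172) and Jup lower (adjusted p = 0.00418). It called 2.94% of the 11935 genes to which it gave an adjusted p (0.913% higher, 2.03% lower). Without a low-count filter edgeR also called these 2, beside 2.47% of all genes with a count. In such bulk samples fewer cells of a type and less RNA per cell cannot be told apart.

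**Figure D1:**
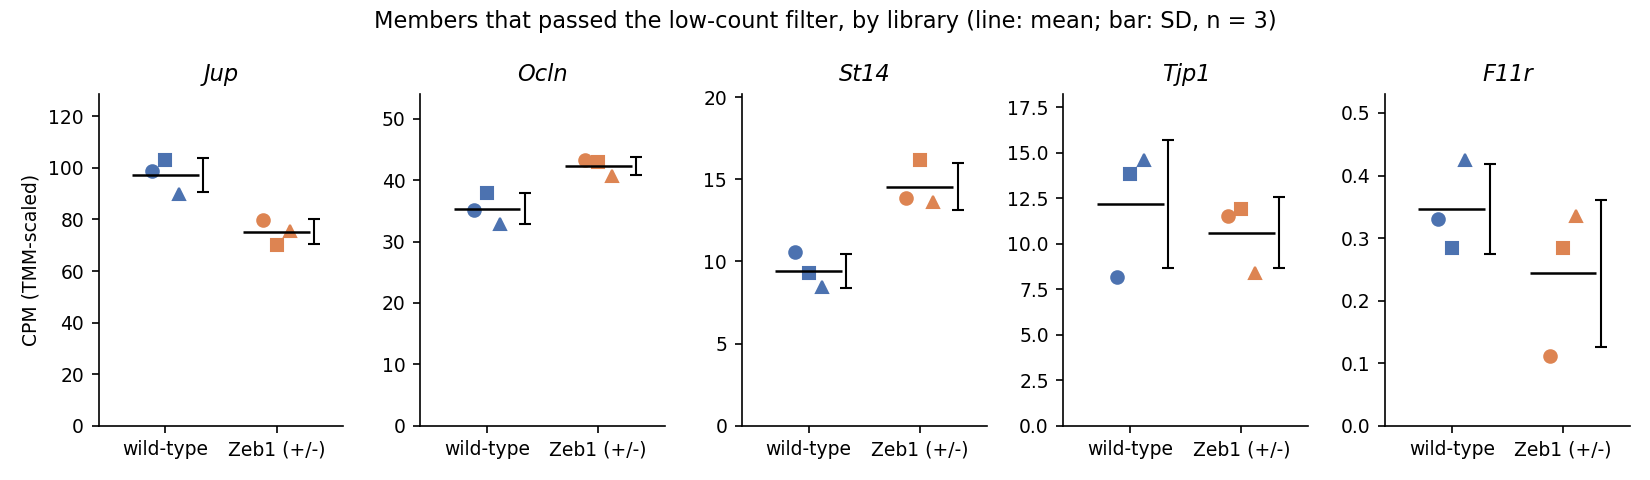
CPM of the 5 members that passed the low-count filter in each library (circle, square and triangle: replicates 1, 2 and 3; line: mean; bar: SD, n = 3), on linear axes from 0. The 3 Zeb1 (+/-) values of Jup lie below, and those of Ocln and St14 above, all wild-type values, while the groups overlap for Tjp1 and F11r.

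St14 (ENSMUSG00000031995.8, chromosome 9 from 31089402 to 31131853 on the minus strand of GRCm38) encodes matriptase, a membrane-anchored serine protease of epithelial surfaces that activates other proteases. It was at 10.5, 9.27 and 8.45 CPM in the wild-type libraries 1, 2 and 3 and at 13.8, 16.2 and 13.6 CPM in Zeb1 (+/-) replicates 1, 2 and 3. The lowest Zeb1 (+/-) library thus stood above the highest wild-type library, with Zeb1 (+/-) replicate 2 highest of all. Mean St14 was 9.42 ± 1.06 in wild-type and 14.6 ± 1.41 CPM in Zeb1 (+/-) (SD, n = 3 each). The fold was 1.54 with a 95% confidence interval of 1.29 to 1.84, and the log2 fold change 0.62 ± 0.11 (SE; unadjusted p = 0.000354). Its edgeR adjusted p of 0.0539 missed the threshold, at rank 85 of 12940 genes by p. St14 passed when wild-type replicate 1 was omitted (log2 fold change 0.72, edgeR adjusted p = 0.0481), in a fit that called 0.468% of 13024 genes. Across the 12 alternatives its adjusted p lay between 0.000591 and 0.241.

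Transcripts of matriptase inhibitors were at low levels. Of 8 genes on the list of matriptase partners and related proteases 3 were tested, 0 passed the threshold and the median log2 fold change was 0.13. Spint2, which encodes a membrane-bound inhibitor of matriptase, was at 0.713 ± 0.0948 and 0.910 ± 0.223 CPM (log2 fold change 0.36, edgeR adjusted p = 0.608). Spint1, the other such inhibitor, had 25 counts over the 6 libraries, and the prostasin gene Prss8, a protease downstream of matriptase, had 0. The related membrane protease hepsin (Hpn) was at 22.0 ± 3.60 and 20.7 ± 1.04 CPM.

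Ocln (ENSMUSG00000021638.12, chromosome 13 from 100496507 to 100552718 on the minus strand) encodes occludin, a membrane protein of tight junctions. It was at 35.2, 38.0 and 32.9 CPM in the wild-type libraries 1, 2 and 3 and at 43.3, 42.9 and 40.7 CPM in Zeb1 (+/-) replicates 1, 2 and 3. The groups did not overlap, although the gap between wild-type replicate 2 and Zeb1 (+/-) replicate 3 was narrow. Mean Ocln was 35.4 ± 2.53 in wild-type and 42.3 ± 1.40 CPM in Zeb1 (+/-) (SD, n = 3 each), a fold of 1.19 (95% confidence interval 1.07 to 1.34). The log2 fold change of 0.26 ± 0.07 (SE) had an unadjusted p of 0.00617 and an edgeR adjusted p of 0.163, and it passed in none of the 12 alternatives (0.0892 to 0.490). Occludin transcripts were detected in every library of both genotypes, with 620 to 1817 counts.

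Jup (ENSMUSG00000001552.14, chromosome 11 from 100368958 to 100397763 on the minus strand) encodes plakoglobin, a close relative of beta-catenin that ties cadherins to the cytoskeleton in adherens junctions and desmosomes. It was at 98.7, 103 and 89.9 CPM in the wild-type libraries 1, 2 and 3. In Zeb1 (+/-) replicates 1, 2 and 3 it was at 79.8, 70.3 and 75.7 CPM, and every one of these was below every wild-type value. Mean Jup was 97.2 ± 6.73 in wild-type and 75.3 ± 4.81 CPM in Zeb1 (+/-) (SD, n = 3 each), a fold of 0.773 (95% confidence interval 0.686 to 0.871). The log2 fold change was −0.37 ± 0.08 (SE; unadjusted p = 0.000827), with an edgeR adjusted p of 0.0781 and a range of 0.00418 to 0.530 over the 12 alternatives. The best-expressed of the 10 genes was thus lower in Zeb1 (+/-), opposite in direction to Ocln and St14.

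Markers of B cells were lower in the same libraries as Jup. Of 10 tested B cell genes 0 passed the threshold, with a median log2 fold change of −0.96, and 9 had groups that did not overlap, with Zeb1 (+/-) lower, against 10.3% of all tested genes. Bank1, the exception, was at 73.9 and 76.3 CPM. All 12 B cell markers together reached 142, 133 and 214 CPM in the wild-type libraries 1, 2 and 3. In Zeb1 (+/-) replicates 1, 2 and 3 the 12 reached 126, 128 and 114 CPM. Bank1 was then set apart after its values were seen, which widens the difference. Without Bank1 the other 11 markers together reached 70.0, 65.7 and 131 CPM in the wild-type libraries 1, 2 and 3. In the Zeb1 (+/-) libraries they reached 52.1, 47.2 and 39.3 CPM. The wild-type library with most B cell transcripts, replicate 3, had the least Jup, the least St14 and the least Ocln of the 3. Adgre1 was higher in all 3 Zeb1 (+/-) libraries than in any wild-type library (log2 fold change 0.26, edgeR adjusted p = 0.111). Over the 10 macrophage markers the median log2 fold change was 0.03. Without overlap, 2 of them (Adgre1 and Gata6) stood above and 1 (Csf1r) below, against 9.6% and 10.3% of all tested genes. The sums of the 10 markers overlapped, at 45569 to 63727 CPM in wild-type libraries and at 46719 to 63123 CPM in Zeb1 (+/-). The part of B cell RNA in the differences of Jup, Ocln and St14 was not tested.

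Ocln and St14 were also set against Jup within each library. Per kilobase of exon, Ocln stood at 0.543, 0.562 and 0.559 of Jup in wild-type replicates 1, 2 and 3 and at 0.827, 0.931 and 0.820 in the Zeb1 (+/-) replicates. St14 stood at 0.0901, 0.0757 and 0.0792 of Jup in wild-type and at 0.146, 0.194 and 0.152 in Zeb1 (+/-). These ratios do not depend on how libraries were scaled, and in neither pair did the groups overlap. That outcome was fixed by the choice of pairs, since Ocln and St14 were higher and Jup lower in all Zeb1 (+/-) libraries. It therefore adds nothing to the differences given above. The ratios were formed after the values were known and carry no test.

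**Figure D2:**
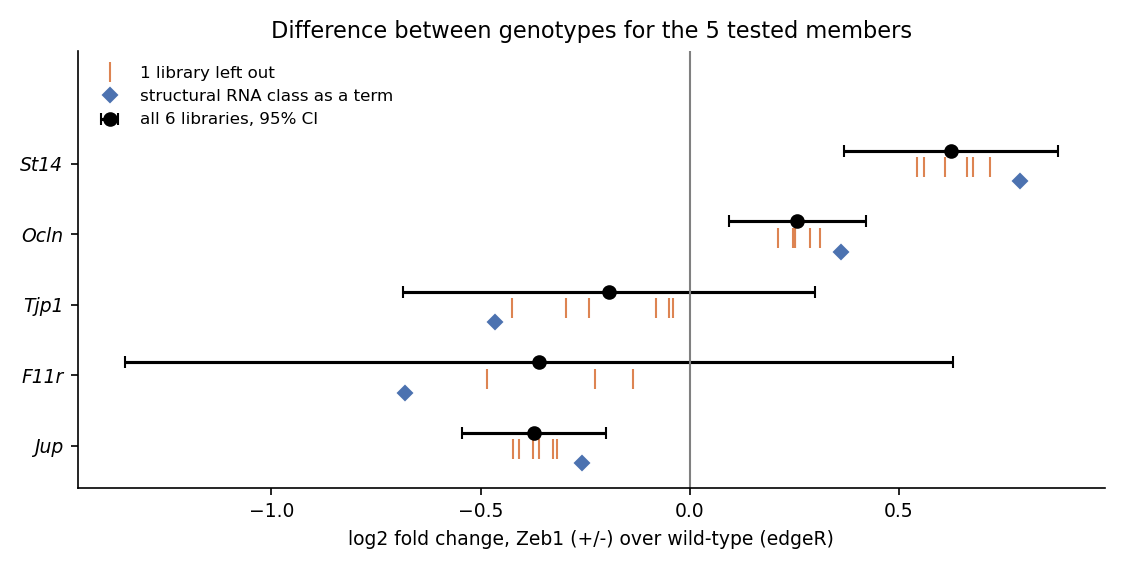
Log2 fold change between genotypes of the 5 tested members (edgeR), with the 95% confidence interval from all 6 libraries (black), the values with 1 library left out (orange ticks; F11r was tested in 3 of these fits) and the value with the structural RNA class as a term (blue diamonds). St14 and Ocln stay to the right and Jup to the left of 0 in each fit, and the intervals of Tjp1 and F11r span 0.

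A fit with the structural RNA class as a covariate compares the Zeb1 (+/-) libraries with wild-type replicate 3 alone. In it the log2 fold changes were 0.79 for St14, 0.36 for Ocln and −0.26 for Jup. None of these passed (edgeR adjusted p = 0.156, 0.337 and 0.530). The class with little structural RNA held wild-type libraries only, so within it there was nothing to compare.

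Tjp1 (ENSMUSG00000030516.14, chromosome 7 from 65296165 to 65527781 on the minus strand) encodes ZO-1, the scaffold that couples occludin and claudins to actin. It was at 8.17, 13.8 and 14.6 CPM in the wild-type libraries 1, 2 and 3 and at 11.5, 11.9 and 8.38 CPM in the Zeb1 (+/-) replicates. The groups overlapped fully, with wild-type replicate 1 and Zeb1 (+/-) replicate 3 both low. The log2 fold change of −0.19 ± 0.22 (SE; 95% confidence interval −0.68 to 0.30, edgeR adjusted p = 0.723) ran from −0.43 to −0.04 with 1 library left out.

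F11r, which encodes the junctional adhesion molecule JAM-A, passed the low-count filter narrowly, with 11, 8 and 8 counts in wild-type replicates 1, 2 and 3 and 2, 12 and 11 counts in the Zeb1 (+/-) replicates. At 0.346 ± 0.0718 and 0.243 ± 0.117 CPM (SD, n = 3 each) the groups overlapped (log2 fold change −0.36, 95% confidence interval −1.35 to 0.63, edgeR adjusted p = 0.744). As a fold, that interval reaches from 0.392 to 1.55. Jam2, another member of the JAM family, was far better represented at 54.8 ± 10.9 and 46.9 ± 5.57 CPM.

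The other 5 genes were at or near the limit of detection. For a library in which a gene has 0 counts, up to 3 counts are compatible with that value, which is 0.0711 to 0.168 CPM depending on depth. These limits, and the one over 6 libraries given below for Esrp1, are scaled to total counts without the TMM correction. They cover counting error only. Cdh1, the E-cadherin gene (chromosome 8 from 106603351 to 106670246 on the plus strand) and the classical ZEB1 target, had 2, 3 and 3 counts in wild-type replicates 1, 2 and 3 and 3, 5 and 3 counts in the Zeb1 (+/-) replicates. Those are 8 and 11 counts in all, at 0.109 ± 0.0497 and 0.126 ± 0.0386 CPM. Epcam, an adhesion molecule of most simple epithelia, had 4, 0 and 2 counts in wild-type and 3, 8 and 2 in Zeb1 (+/-), and the groups overlapped. Crb3, an apical polarity protein, had 1 count in wild-type replicate 2 and 2 counts in Zeb1 (+/-) replicate 3. Cldn1, the claudin that seals tight junctions of skin, had 1 count, in wild-type replicate 1. Esrp1, the splicing regulator that sets epithelial exon choice, had 0 counts in all 6 libraries, which allows up to 0.0173 CPM over the 6 libraries together. A small difference between genotypes in these 5 was not detectable at this depth. Without a low-count filter edgeR tested those of the 5 that had a count, and none passed.

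**Figure D3:**
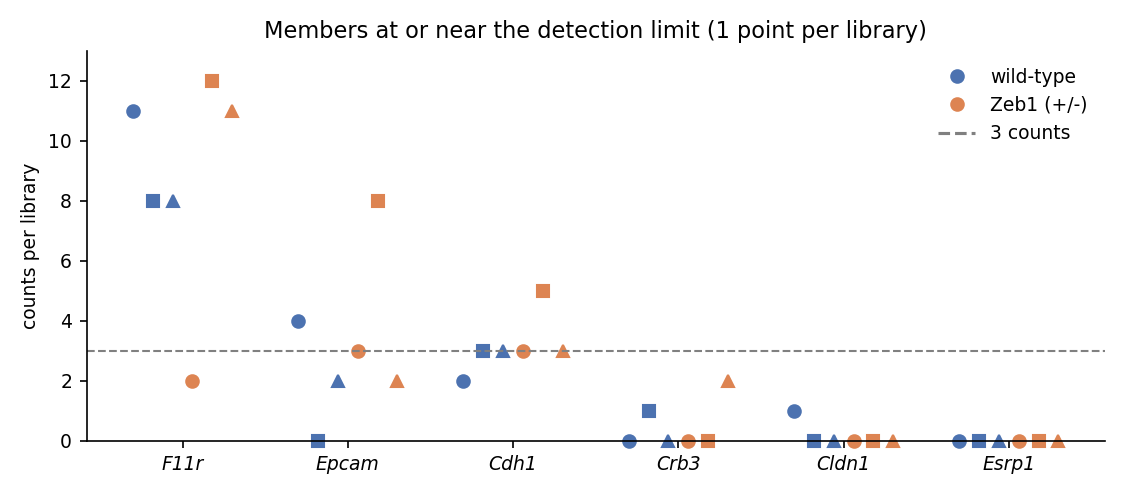
Counts per library of the 6 members with the fewest counts (blue: wild-type; orange: Zeb1 (+/-); circle, square and triangle: replicates 1, 2 and 3; dashed line: 3 counts, the limit that a count of 0 allows). F11r reaches 12 counts, Epcam 8 and Cdh1 5, while Crb3, Cldn1 and Esrp1 stay at 0 to 2 in both genotypes.

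The promoters of these genes are shown for Ocln and Jup, which lay on opposite sides, and for Crb3, which was all but absent. RefSeq (GRCm38.p6) gave a window of 250 bases before a transcription start for 7 of the 10 genes, all but Cdh1, St14 and Esrp1. In these windows the E-box CAGGTG that ZEB1 prefers, and its variant CAGGTA, were searched on both strands (CACCTG and TACCTG). Of all 32851 RefSeq windows of this length 17.2% held CAGGTG, 10.05% held CAGGTA and 25.4% held either. The sequences run 5′ to 3′ along the gene, with the matches in capitals. Ocln is at chr13:100552499-100552748 on the minus strand, Jup at chr11:100397791-100398040 on the minus strand and Crb3 at chr17:57061951-57062200 on the plus strand.
Ocln: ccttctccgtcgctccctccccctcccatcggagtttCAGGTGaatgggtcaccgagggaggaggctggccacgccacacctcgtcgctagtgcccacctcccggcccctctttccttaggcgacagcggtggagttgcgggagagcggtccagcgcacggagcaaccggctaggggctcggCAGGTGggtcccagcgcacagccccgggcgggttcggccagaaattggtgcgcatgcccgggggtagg
Jup: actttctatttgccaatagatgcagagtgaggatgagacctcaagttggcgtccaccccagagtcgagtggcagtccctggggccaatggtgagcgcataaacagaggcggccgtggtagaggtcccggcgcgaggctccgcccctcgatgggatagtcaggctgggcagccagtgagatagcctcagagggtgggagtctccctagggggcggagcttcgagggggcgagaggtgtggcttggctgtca
Crb3: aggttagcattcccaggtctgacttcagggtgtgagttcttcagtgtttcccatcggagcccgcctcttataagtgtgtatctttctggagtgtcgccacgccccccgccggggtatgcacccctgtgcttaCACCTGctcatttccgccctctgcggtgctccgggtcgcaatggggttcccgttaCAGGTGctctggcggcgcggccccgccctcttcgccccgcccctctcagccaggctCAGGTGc
The Ocln window held CAGGTG at positions −213 and −68 before the start, and the window of its other start held no match. That other start, at 100552718, is the 5′ end of the gene as annotated, so both matches lie inside the annotated gene. Crb3 held CACCTG at −118 and CAGGTG at −63 and −7. The Jup window held neither motif, nor did that of Tjp1. Among the genes near the detection limit, Epcam held 2 matches, F11r 2 and Cldn1 1. So 5 of the 7 genes had a match in a window, as did 28.2% of the 27025 genes in the table. Of those 5, Ocln alone was above 1 CPM. All members were picked as genes known to be repressed by ZEB1, so their share of matches is tied to that choice. A match describes these letters and does not show binding, and a window without a match says nothing of sites elsewhere.

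Levels can be compared between genes per kilobase of merged exon. In wild-type, Jup led with 15.1 ± 1.05 CPM per kilobase, followed by Ocln with 8.37 ± 0.600. Tjp1 with 1.56 ± 0.450 and St14 with 1.23 ± 0.139 CPM per kilobase overlapped. F11r was at 0.130 ± 0.0270, Epcam at 0.0344 ± 0.0299 and Cdh1 at 0.0238 ± 0.0109 CPM per kilobase, and Epcam and Cdh1 overlapped in both genotypes. In Zeb1 (+/-), Jup was at 11.7 ± 0.747 and Ocln at 10.02 ± 0.332 CPM per kilobase, in the same order as in wild-type. The St14 level was 1.91 ± 0.185 CPM per kilobase there, with all 3 values above those of Tjp1 (1.36 ± 0.248). Scaled by the longest transcript, wild-type Jup was at 30.3 and St14 at 2.65 CPM per kilobase, which put St14 above Tjp1 (1.73) in wild-type as well. On that scale Jup was at 23.5 and Ocln at 10.4 CPM per kilobase in Zeb1 (+/-), so the distance between Jup and Ocln depended on the length used.

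**Figure D4:**
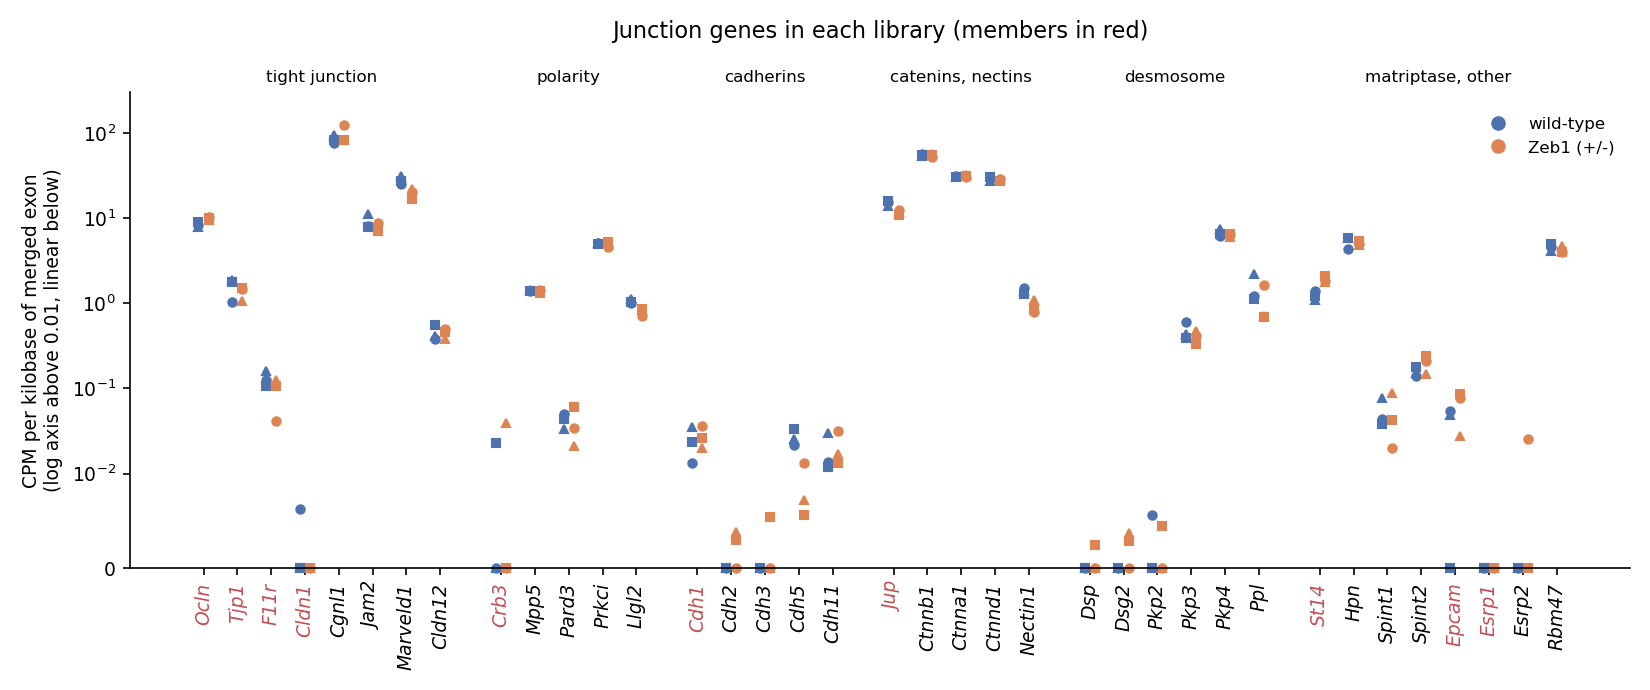
CPM per kilobase of merged exon in each library for the 10 members (red names) and for partner genes from lists of junction, polarity and protease genes (blue: wild-type; orange: Zeb1 (+/-)); the axis is logarithmic above 0.01 and linear below. Ctnnb1, Ctnna1, Ctnnd1 and the scaffold Cgnl1 stand at 28.9 to 84.8 CPM per kilobase in wild-type, whereas Cdh1 is at 0.0238 and Cdh2 and Cdh3 at or near 0.

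The neighbours of these genes in the junction were present in part. On the 7 lists of tight junction, polarity, adherens junction, desmosome, matriptase-related, epithelial regulator and other ZEB1-repressed genes there were 87 genes besides the 10. Of these 36 were tested and 51 were not, 15 of them without a count in any library. None of the 36 passed the edgeR threshold in either direction. At an unadjusted p under 0.05 there were 0 higher and 4 lower, where all tested genes had 6.3% higher and 8.26% lower. Of the 36 genes 26 had a log2 fold change below 0, against 50.1% of all tested genes. The median was −0.08, beside −0.000384 over all tested genes.

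Of the tight junction list 10 of 22 genes were tested and 0 passed, with a median of −0.21. The junctional scaffold paracingulin (Cgnl1) was the strongest of them, at 603, 658 and 735 CPM in the wild-type libraries 1, 2 and 3 and at 970, 643 and 646 CPM in the Zeb1 (+/-) replicates. Zeb1 (+/-) replicate 1 was highest, and the groups overlapped. Marveld1, which encodes a membrane protein with the MARVEL domain that occludin also has, was at 107, 119 and 133 CPM in wild-type and at 87.2, 73.0 and 93.5 CPM in Zeb1 (+/-). All 3 Zeb1 (+/-) values were below all wild-type values, with a log2 fold change of −0.50 ± 0.11 (SE; edgeR adjusted p = 0.0855). Of the claudins, Cldn12 was at 1.91 and 1.89 CPM, and Cldn2, Cldn3, Cldn4 and Cldn8 had no count.

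The adherens junction list had catenins without a classical cadherin. Ctnnb1, the beta-catenin gene, was at 285 ± 6.98 and 286 ± 12.4 CPM, Ctnna1 (alpha-catenin) at 197 ± 2.64 and 201 ± 3.86 CPM, and Ctnnd1 (p120-catenin) at 211 ± 9.25 and 208 ± 4.86 CPM. Over all 6 libraries Cdh2 had 2 counts, Cdh3 1, Cdh5 12 and Cdh11 27. Of 13 genes 8 were tested and 0 passed, with a median of −0.000834. The smallest p was that of Nectin1, an adhesion receptor beside cadherins, at 7.87 ± 0.662 and 5.13 ± 0.940 CPM (log2 fold change −0.61 ± 0.15, edgeR adjusted p = 0.126). Relative to Ctnnb1 per kilobase, Jup was at 0.272, 0.292 and 0.260 in wild-type and at 0.236, 0.197 and 0.205 in Zeb1 (+/-).

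Plakoglobin also had few partners of the desmosome. Dsp, which encodes desmoplakin, had 1 count over all libraries, the desmoglein gene Dsg2 had 2, and Pkp1, Dsc2 and Dsc3 had 0. Pkp4, a p120-related protein found at several kinds of junction, was at 38.0 ± 3.64 and 35.9 ± 1.46 CPM. Of 11 genes 3 were tested and 0 passed (median −0.25). The periplakin gene Ppl had the smallest p (10.4 ± 4.18 and 6.93 ± 3.67 CPM, edgeR adjusted p = 0.456).

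Of 13 polarity genes 10 were tested and 0 passed (median −0.03). Llgl1 and Llgl2, homologues of the fly tumour suppressor lethal giant larvae, had groups that did not overlap. These 2 of the 10 were lower in Zeb1 (+/-), where 10.3% of all tested genes were lower without overlap. Llgl1 was at 40.0 ± 3.91 and 34.2 ± 0.998 CPM (log2 fold change −0.23, edgeR adjusted p = 0.250). Llgl2, which is itself reported as repressed by ZEB1, was at 4.90, 4.97 and 5.47 CPM in wild-type and at 3.46, 4.11 and 4.05 CPM in Zeb1 (+/-), lower in all 3 (log2 fold change −0.39, edgeR adjusted p = 0.262). Mpp5, the polarity scaffold that binds Crb3, was at 12.4 ± 0.111 and 12.2 ± 0.564 CPM.

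Of 22 other genes known as repressed by ZEB1, 4 were tested and 0 passed (median −0.27), with Llgl2 at the smallest p. This list shares genes with those of tight junctions (such as Inadl), polarity (Llgl2) and epithelial regulators (such as Grhl2). Its values are therefore not separate from theirs. Of 10 epithelial regulators Rbm47 alone was tested, an RNA-binding protein of epithelia and of myeloid cells, at 32.8 ± 3.04 and 30.5 ± 3.04 CPM (edgeR adjusted p = 0.648). Esrp2, the paralogue of Esrp1, had 2 counts over all libraries, and Grhl2 and Ovol2, transcription factors that keep cells epithelial, had 0.

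Zeb2, the other ZEB factor, which binds the same E-boxes, was far more abundant than Zeb1. It was at 557, 558 and 558 CPM in the wild-type libraries 1, 2 and 3 and at 510, 485 and 546 CPM in the Zeb1 (+/-) replicates. All 3 Zeb1 (+/-) values were below the wild-type values, with a log2 fold change of −0.12 ± 0.07 (SE; edgeR adjusted p = 0.445). The antisense gene Zeb2os shares 653 exon bases with Zeb2, and reads of the pair may be split between them. Per kilobase the wild-type means were 28.0 for Zeb2 and 0.657 for Zeb1. Of 9 E-box repressors and related factors 5 were tested, 0 passed and the median was −0.12. Snai1, Snai2 and Twist1 had 2, 1 and 1 counts over all 6 libraries. The 7 corepressor genes were all tested, with 0 past the threshold and a median of −0.01. Ctbp1 was at 127 ± 6.20 and 127 ± 2.76 CPM, and Hdac2, which had the smallest p, at 34.8 ± 1.77 and 37.5 ± 3.11 CPM (edgeR adjusted p = 0.541). Of 12 mesenchymal genes 4 were tested and 0 passed (median −0.06). The fibronectin gene Fn1 and the vimentin gene Vim were at 43922 and 617 CPM in Zeb1 (+/-) and at 41719 and 595 CPM in wild-type, and S100a4 had the smallest p (edgeR adjusted p = 0.502).

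**Figure D5:**
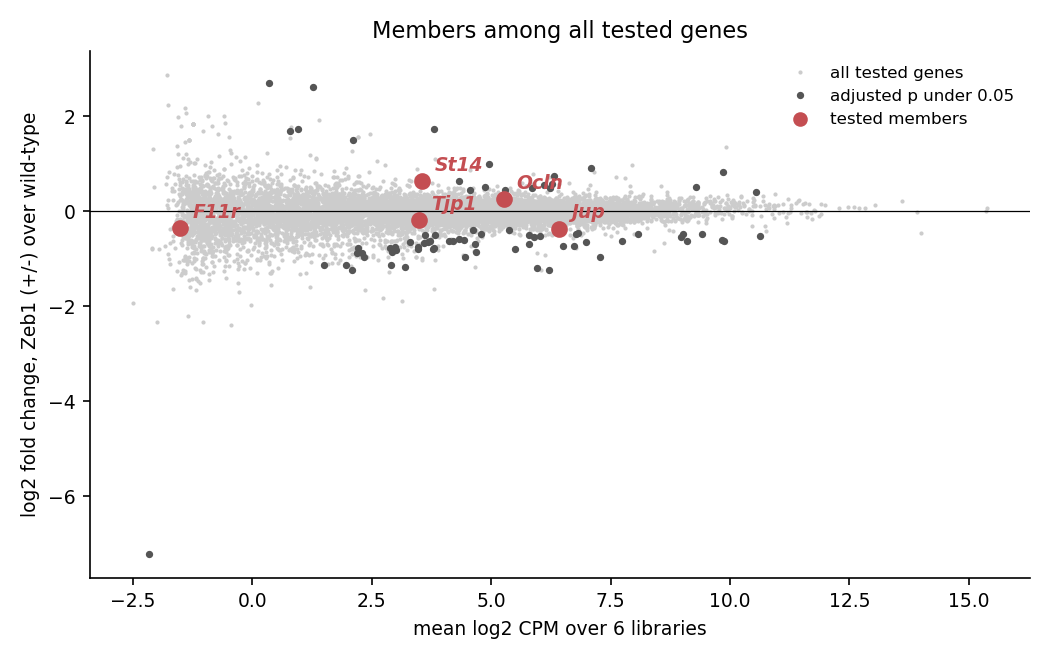
Log2 fold change (Zeb1 (+/-) over wild-type) against mean log2 CPM for all 12940 tested genes (grey), with genes at an edgeR adjusted p under 0.05 in dark grey and the 5 tested members in red. St14 lies above and Jup below 0 by 0.62 and 0.37, near the edge of the cloud at their level, and Tjp1 and F11r lie inside it.

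Across the 6 libraries the patterns of St14 and Ocln in log2 CPM had a Pearson r of 0.89, while Jup had −0.86 with St14 and −0.70 with Ocln. These are descriptions over libraries that share the genotype difference, and they carry no p. Among 10798 other genes of at least 2 CPM, those most like St14 were Tsn (r = 0.99), Rfk and Mpc2. The nearest to Ocln were Plod3 (r = 1.00), Zfp617 and Dusp19, and to Tjp1 they were Cpne1 (r = 1.00), Gm684 and Kifc2. Jup was followed most closely by Fam129a, Trerf1 and Prr14, of which Fam129a and Trerf1 were themselves lower in Zeb1 (+/-) (log2 fold changes −0.41 and −0.64, edgeR adjusted p = 0.04996 and 0.0328). With so few libraries such values were not confined to the genes named. Of the 10798 genes compared, 73 had an r over 0.95 with St14, 31 with Ocln, 30 with Tjp1 and 74 with Jup.

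The other marker lists gave no gene past the edgeR threshold, but some differed in level. The 8 fibroblast markers summed to 1.27 to 1.74 CPM in wild-type and to 0.670 to 1.06 CPM in Zeb1 (+/-), without overlap. The mean sums were 1.57 and 0.892 CPM, and Thy1 alone made up 0.901 and 0.438 CPM of them. Only Thy1 of the 8 was tested (log2 fold change −1.02, edgeR adjusted p = 0.243), and Pdgfra had no count. The 6 tested platelet and erythroid genes had a median log2 fold change of −1.62, with the haemoglobin genes lower on average and their groups overlapping, while the platelet gene Pf4 was at 527 and 572 CPM. The part of these cells in the differences of the junction genes was not tested. Of the tested genes of each list, 1 of 8 in fibroblasts, 1 of 10 in T and NK cells, 5 of 8 in dendritic cells, 5 of 10 in mast cells, basophils and eosinophils, 2 of 8 in neutrophils, 6 of 9 in platelets and erythroid cells and 10 of 10 in macrophages had enough counts. The genes with the smallest p were Thy1, Cd4, Ccr7, Siglecf, Elane, Hba-a1 and Adgre1 in that order. In the lists already given they were Krt7, Lgals4 (epithelium) and Blk (B cells). The haemoglobin genes summed to 211 CPM in wild-type replicate 1 and to 2.85 to 47.8 CPM in the other 5 libraries.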

How the data were processed

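Gene counts of 6 RNA-seq libraries were used, 3 per genotype, with totals of 17859872 to 42165006 counts. The deposited table holds expected counts per gene, for which the submitters' processing notes name STAR, RSEM, edgeR and GRCm38 without versions or order. All values were whole, so they had been rounded before deposit. The kit was a stranded mRNA kit per the labels' protocols, and the strand setting of the counting was not given in the sources used here. Columns were assigned through the library code in each sample's description, with 0 columns left over. Coordinates, exon lengths and overlaps came from GENCODE M21 (GRCm38), where 99.3% of identifiers matched without their version.

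Genes were kept by filterByExpr (minimum count 10, minimum total 15), scaled by TMM and tested with the edgeR 4.0.16 quasi-likelihood method in R 4.3.3, with Benjamini-Hochberg adjustment over 12940 genes. The model was also run on 10 simulated sets that took their means and trended dispersion from these data. It recovered a median of 70.5% of genes changed 1.5-fold and 87.5% of genes changed 2-fold. The SE is the log2 fold change divided by the square root of F. P-values measure only the spread between these libraries, each of 2 pooled mice. Samples were not treated as paired, since the labels do not pair the set numbers in the titles. Same-numbered libraries had correlated deviations of −0.25, −0.03 and −0.17, which cannot show whether sets were collected together. Alternatives were DESeq2-type (RLE) scaling, testing every gene, a floor of 1 CPM in 3 libraries, the replicate block, DESeq2 1.42.0, the structural RNA class as a term and each library left out. Up to 0.830% of the 50-base stretches of a member occur in transcripts of other genes, and 14 exon bases of Crb3 overlap Dennd1c on the other strand.

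The members and lists were chosen with earlier results of these data known. Named are all members, Zeb1, Zeb2, Adgre1 and Itgam, and from each list the genes past the threshold or else the smallest p. The 3 genes most like each member of at least 2 CPM are also named. Other genes were named as examples of their list after their values were seen. The values of 1 listed gene are not reported here.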

Additional observations from a re-analysis of the deposited data

How the results depend on the processing

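The 5 tested genes kept their direction in every alternative that tested them, 12 each for St14, Jup, Ocln and Tjp1 and 7 for F11r. No member passed in edgeR with RLE size factors, with at least 1 CPM in 3 libraries, with the replicate block or with the structural RNA class as a term. Without a low-count filter 2 passed (St14 and Jup, adjusted p = 0.000591 and 0.0105), and DESeq2 called the same 2. With 1 library left out the count ran from 0 to 1, St14 without wild-type replicate 1. Over all genes 76 were called. There were 522 without a low-count filter (207 higher, 315 lower), 351 with DESeq2 (109 and 242) and 31 with the structural RNA class as a term (4 and 27). With the replicate block 15 were called (6 and 9), and the set numbers are not a pairing given by the labels. Leaving out 1 library gave 5 (wild-type replicate 2 omitted) to 127 genes (Zeb1 (+/-) replicate 3 omitted). Omitting Zeb1 (+/-) replicate 1 gave 28 and omitting Zeb1 (+/-) replicate 2 gave 11. The cause of these shifts was not tested. Scaling by the longest transcript moved the wild-type level per kilobase of Jup from 15.1 to 30.3 CPM and of St14 from 1.23 to 2.65 CPM, since their longest transcripts are shorter than their merged exons. F11r had no adjusted p in DESeq2 and too few counts in 3 of the fits with a library left out and in the stricter filter.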
